A study of Mus musculus with 8 samples.

Results

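The guanylate-binding proteins are large GTPases of the dynamin superfamily whose genes are switched on by interferons, above all by interferon gamma. In macrophages they assemble on the vacuoles of intracellular pathogens and on cytosolic bacteria, and they promote the release of microbial products to caspase-11 and other inflammasome sensors. Interferon gamma acts through its receptor and the kinases JAK1 and JAK2, and its target promoters carry GAS elements and ISRE elements, the latter bound by IRF factors. The genes described are the 8 listed by name, Gbp2, Gbp3, Gbp4, Gbp5, Gbp6, Gbp7, Gbp8 and Gbp9, out of 15853 genes in the deposited comparison, and all 8 were found there and passed its filter on low values. They were chosen by family after the fold changes and adjusted p-values of the same comparison were known, with Gbp2 and Gbp5 among the genes called lower, so their values are a description and support nothing by themselves.

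The cells were mouse bone marrow macrophages grown for 7 days in L929-conditioned medium and then given 250 uM palmitate (C16:0), 25 mM glucose and 10 nM insulin for 24 h. The control group (4 libraries) was Mirc11fl/fl Mirc22fl/fl Lyz2+/+, and the knockout group (4 libraries) was Mirc11fl/fl Mirc22fl/fl Lyz2Cre/Cre. Both thus carry floxed alleles of the clusters of the miR-24, miR-23 and miR-27 families, and the knockout also carries Cre on both copies of Lyz2, a myeloid gene that the insertion disrupts. No interferon is among the agents that the labels name. Cre activity cannot be told apart from loss of Lyz2 or of the miRNAs in this design, and deletion of the clusters was not measured. Values of single libraries were not used, because their columns carry no sample name, so each gene is described by its mean over all libraries and by the fold change with its standard error (SE). Directions rest on Lyz2, which the authors' deposited table puts at -9.10 (SE 0.42) on the log2 scale, so negative values were read as lower in knockout. Since the Cre insertion disrupts Lyz2, this is no independent check of the labels.

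The members lie in 2 blocks (GENCODE M21, GRCm38, the assembly of mm10). Gbp5, Gbp7, Gbp3 and Gbp2 lie on the plus strand of chromosome 3, in that order, between 142493978 and 142638008, a span of 144 kb. Gbp8, Gbp9, Gbp4 and Gbp6 lie on the minus strand of chromosome 5 between 105014150 and 105293698, a span of 279.5 kb. The gene models of Gbp8, Gbp9 and Gbp4 overlap on the same strand and begin at nearly the same base (105139540, 105139539 and 105139586). Gbp4 and Gbp8 share 61 exonic bases, and each of them shares 60 with Gbp9. Each member except Gbp8 has 10 coding exons in its longest coding model. Gbp8 has 9, with 525 codons against 589 in Gbp2, 590 in Gbp5 and up to 638 in Gbp7.

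Promoter windows are shown for the chromosome 3 members, because the genes are known for their induction through interferon elements. The RefSeq promoter table (GRCm38.p6) matched 4 of the 8 genes, Gbp2, Gbp3, Gbp5 and Gbp7. Each window of 300 bases runs from 250 before to 50 after the annotated start, on the plus strand. Capitals mark GAS letters (TTCNNNGAA) and the ISRE core, a pair of GAAA runs with 2 bases between them, searched on both strands. On the strand shown the ISRE core reads as TTTC runs.
Gbp2, chr3:142620413-142620712: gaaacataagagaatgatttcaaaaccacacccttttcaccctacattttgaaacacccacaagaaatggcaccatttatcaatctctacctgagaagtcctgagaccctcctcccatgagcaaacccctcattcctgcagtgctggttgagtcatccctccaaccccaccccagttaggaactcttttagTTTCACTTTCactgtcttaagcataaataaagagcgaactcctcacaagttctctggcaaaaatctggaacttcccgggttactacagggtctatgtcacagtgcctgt
Gbp3, chr3:142559794-142560093: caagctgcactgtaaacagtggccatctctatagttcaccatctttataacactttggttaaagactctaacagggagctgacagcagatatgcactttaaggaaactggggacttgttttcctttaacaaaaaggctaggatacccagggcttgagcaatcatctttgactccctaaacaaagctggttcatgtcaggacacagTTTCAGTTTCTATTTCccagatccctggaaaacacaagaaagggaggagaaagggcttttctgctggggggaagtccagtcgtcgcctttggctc
Gbp5, chr3:142496684-142496983: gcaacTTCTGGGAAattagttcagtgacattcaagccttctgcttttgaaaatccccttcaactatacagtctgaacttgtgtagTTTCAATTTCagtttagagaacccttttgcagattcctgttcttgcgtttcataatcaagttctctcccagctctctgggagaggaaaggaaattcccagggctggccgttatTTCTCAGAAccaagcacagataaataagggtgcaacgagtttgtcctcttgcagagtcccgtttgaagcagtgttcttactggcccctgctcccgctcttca
Gbp7, chr3:142530086-142530385: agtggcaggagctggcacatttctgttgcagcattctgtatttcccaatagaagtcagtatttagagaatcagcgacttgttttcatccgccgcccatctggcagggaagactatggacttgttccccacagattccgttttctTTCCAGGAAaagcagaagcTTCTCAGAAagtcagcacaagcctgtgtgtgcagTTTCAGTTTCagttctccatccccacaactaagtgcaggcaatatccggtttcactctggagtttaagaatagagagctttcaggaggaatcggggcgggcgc

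All 4 members with a window had an ISRE core, against 4.04% of the 10679 tested genes with a window. Over all 32851 promoter windows of this length the share was 3.44%. In Gbp2 the match TTTCACTTTC begins 59 bases before the RefSeq start, at 142620604 to 142620613. GENCODE starts the Gbp2 gene at 142620602, so the match lies inside that longer model, and the Gbp5 window likewise lies inside the longer GENCODE model of that gene. Gbp3 has the overlapping matches TTTCAGTTTC and TTTCTATTTC from 45 to 30 bases before its start, and its second annotated start, with a window at chr3:142560106-142560405, has neither motif. Gbp7 has TTTCAGTTTC from 53 to 44 bases before its start, the same 10 letters as Gbp3, whose coding sequence is its closest match among the other members. In Gbp5 the match TTTCAATTTC lies farther out, from 165 to 156 bases before the start. GAS letters occur in the windows of Gbp5 and Gbp7, at 2 positions each, against 8.32% of tested genes with a window and 8.3% of all windows. Both hold TTCTCAGAA, from 52 to 44 bases before the start in Gbp5 and from 87 to 79 in Gbp7. GAS and ISRE matches do not overlap each other in these windows. A match is a description of the letters and not a measured binding site.

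Gbp2 and Gbp5 fell in knockout, Gbp8 rose, and the other 5 members did not pass the test. By the authors' DESeq2 call at an adjusted p under 0.05, 2 of 8 members were lower in knockout, against 11.7% of the 14619 genes with an adjusted p, and 1 of 8 was higher, against 11.3%. At an unadjusted p under 0.05 the counts were 3 lower and 1 higher of 8, against 16.7% lower and 15.6% higher of the 15849 genes with a p-value. The log2 fold change was below 0 in 7 of 8 members, against 50.7% of all genes tested, and the median was -0.54 against 0.00 (-0.0040) for all genes tested. The members are neighbours with shared sequence and were selected on this comparison, so no more is read from these shares.

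Gbp2, a prenylated member that coats parasite and bacterial vacuoles, averaged 2673 normalized counts in the authors' deposited table and fell by 0.77 on the log2 scale (SE 0.24, DESeq2 adjusted p = 0.00948). With equal group sizes this corresponds to group means of 3371 in control and 1975 in knockout, or 0.586 times the control level. Gbp5, also prenylated and linked to assembly of the NLRP3 inflammasome, averaged 787 there and fell by 0.61 (SE 0.16, DESeq2 adjusted p = 0.00134 in the authors' deposited table). Its derived group means were 950.4 in control and 624 in knockout, 0.657 times the control level. Gbp2 had the larger fall, and Gbp5, whose SE was smaller, the smaller adjusted p. These 2 genes were called under all of the other filters, scalings and the stricter threshold tried, each changed alone. Gbp2 passed the threshold of 0.01 narrowly. Its recomputed adjusted p was 0.0103 without a filter and 0.0194 with centring on the summed group means. For Gbp5 these were 0.00146 and 0.0049.

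Gbp7, which acts with autophagy and NADPH oxidase proteins against intracellular bacteria, was just outside the call. The authors' deposited table gives it -0.32 on the log2 scale (SE 0.13, DESeq2 adjusted p = 0.0505), with derived means of 2720 in control and 2172 in knockout. The 95% interval ran from -0.58 to -0.07 on the log2 scale. Among genes with a mean of at least 50 the recomputed adjusted p was 0.0454, so that Gbp7 then passed. It did not pass without a filter (adjusted p of 0.0548). Centring on the median gene (0.0542) or on the summed group means (0.131) did not make it pass either. Gbp3, the remaining gene of the chromosome 3 block, is put by the authors' deposited table at -0.71 (SE 0.40, DESeq2 adjusted p = 0.197), with an interval of -1.51 to 0.08 that included 0. The estimate for Gbp3 was close to that for Gbp2, but its SE was wider and it did not pass the test.

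Gbp8 was the only member with a positive value, and it passed the threshold narrowly. The authors' deposited table gives Gbp8 a rise of 0.35 on the log2 scale (SE 0.14, DESeq2 adjusted p = 0.0475) at 533 normalized counts on average. The derived means were 469 in control and 597 in knockout, a 1.27-fold difference, and the 95% interval ran from 0.08 to 0.61 on the log2 scale. Without a filter on low values the adjusted p was 0.0515 and the call was lost. With fold changes centred on the summed group means it was 0.0163. The difference in response between Gbp8 and the other members was not tested, because the deposited values do not give how their errors vary together.

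The other chromosome 5 members, Gbp4, Gbp6 and Gbp9, were not called. The authors' deposited table puts Gbp4 at -0.69 on the log2 scale (SE 0.53, DESeq2 adjusted p = 0.359), with an interval of -1.72 to 0.34. The authors' deposited table puts Gbp6 at -0.48 on the log2 scale (SE 0.56, DESeq2 adjusted p = 0.584), with an interval of -1.57 to 0.62. The authors' deposited table puts Gbp9 at -0.26 on the log2 scale (SE 0.25, DESeq2 adjusted p = 0.475), with an interval of -0.74 to 0.22. These intervals hold no change and also falls at least as large as that of Gbp2 for Gbp4 and Gbp6, so at this spread neither can be set aside for those genes. The intervals of Gbp4, Gbp6 and Gbp9 also overlap that of Gbp8.

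**Figure D1:**
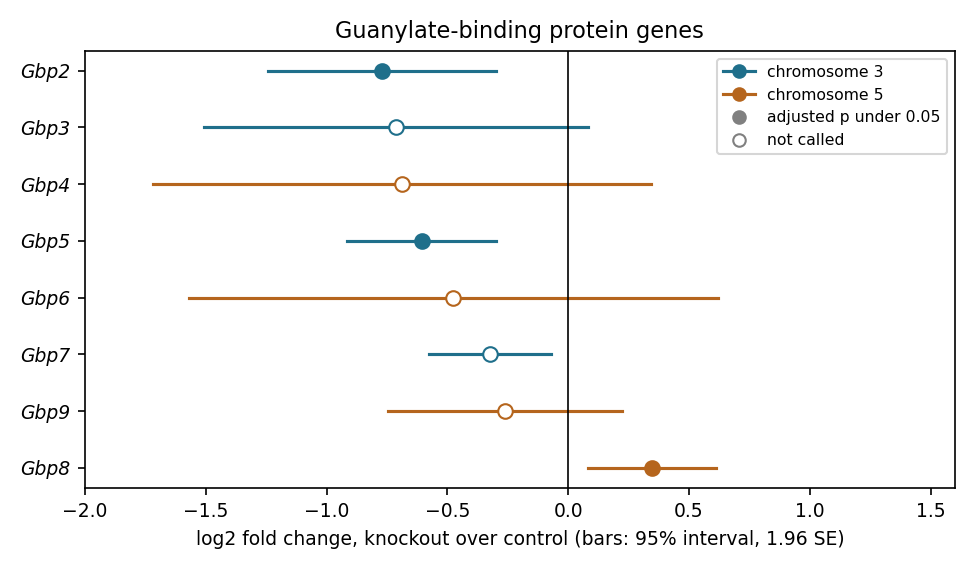
Log2 fold change of knockout over control for the 8 genes (points) with the 95% interval (bars), ordered by value and coloured by chromosome; filled points have an adjusted p under 0.05. Gbp2 (-0.77), Gbp5 (-0.61) and Gbp8 (0.35) are filled, Gbp8 is the only point above 0, and the bars of Gbp3, Gbp4, Gbp6 and Gbp9 cross 0.

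The genes also differed in abundance. In the authors' deposited table the mean normalized count ran from 462 for Gbp4 to 5844 for Gbp9, with Gbp6 at 4018 and Gbp3 at 2749. Per 1000 nucleotides of the longest annotated transcript, Gbp9 (1159), Gbp2 (1062), Gbp3 (1025) and Gbp6 (947) formed the upper 4. Gbp7 was at 436 on this scale, and Gbp5 (210), Gbp8 (158) and Gbp4 (102) were the lowest. The highest was 11.4 times the lowest. The order within the upper 4 depended on the length used: Gbp6 led at 1543 with the longest protein-coding transcript, and Gbp3 led at 2915 with the median transcript, since 7 Gbp3 transcripts of very unequal length are annotated. Gbp7 stayed between the upper 4 and the lower 3 on each of these scales, and Gbp4 stayed lowest. Whether neighbours in this order differ beyond the spread over libraries was not assessed. The genes called lower thus come from both parts of the range, Gbp2 from the upper 4 and Gbp5 from the lower 3.

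**Figure D2:**
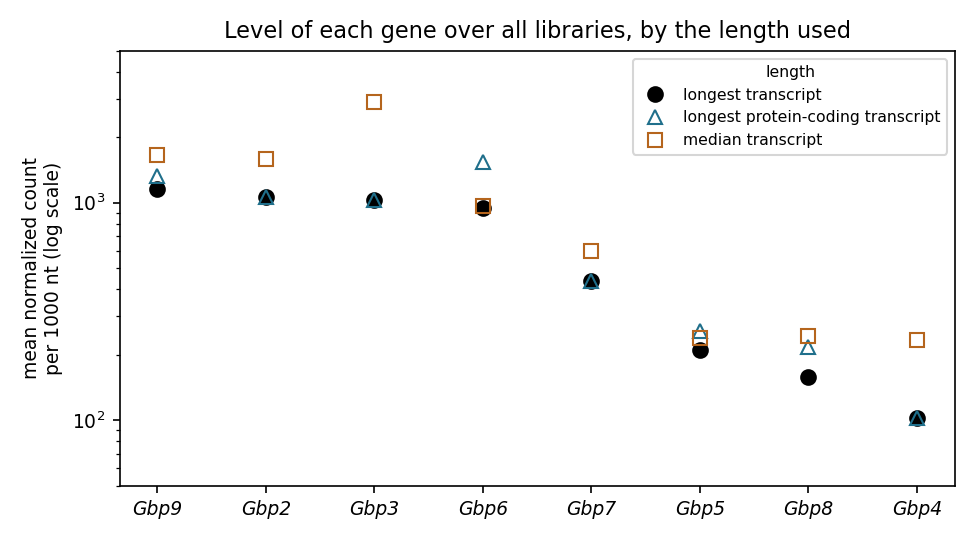
Mean normalized count over all libraries per 1000 nucleotides (log axis) for each gene, with 3 choices of transcript length as symbols. Gbp9, Gbp2, Gbp3 and Gbp6 lie above Gbp7, and Gbp5, Gbp8 and Gbp4 lie below it, whichever length is used.

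The precision of the fold changes differed widely among the members. Each member's SE was divided by the median SE of the 200 genes nearest in abundance, which gives how much more its fold change was uncertain than is usual at that level. The ratio was 7.47 for Gbp6, 4.95 for Gbp3, 4.17 for Gbp4, 3.42 for Gbp9 and 3.11 for Gbp2. It was 1.63 for Gbp7, 1.48 for Gbp5 and 1.12 for Gbp8. Gbp6, among the most abundant, was therefore known less precisely than Gbp5, whose mean normalized count was 787 against 4018. The median ratio over the 8 genes was 3.27. An SE of this comparison reflects the spread between libraries of a group, but which libraries were high or low cannot be given here.

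**Figure D3:**
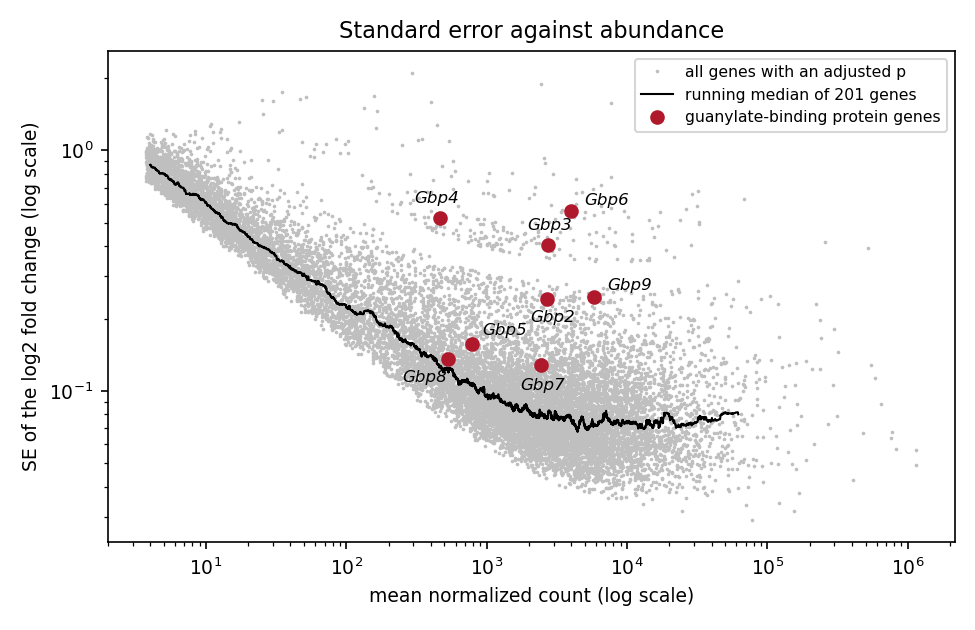
Standard error of the log2 fold change against mean normalized count (both log axes) for all genes with an adjusted p (grey), their running median (line) and the 8 genes (red). Gbp8 lies close to the line, with a ratio of 1.12 to genes of like abundance, and Gbp6 lies 7.47 times above it.

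Sequence similarity is described because reads of near copies may not be assigned to the right gene. Its part in these values was not tested. Within the chromosome 5 block the coding sequences were 89.7% to 92.9% identical over aligned bases in all 6 pairs, with Gbp4 and Gbp8 the closest pair. Within the chromosome 3 block the 6 pairs ran from 64.6% to 78.5%, with Gbp3 and Gbp7 the closest. The 16 pairs across blocks ran from 63.0% to 75.9%. Gbp3 and Gbp7 were closer to every chromosome 5 member (72.5% to 75.9%) than to Gbp2 and Gbp5 (64.6% to 65.9%). Gbp2 and Gbp5 were 68.7% identical to each other.

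**Figure D4:**
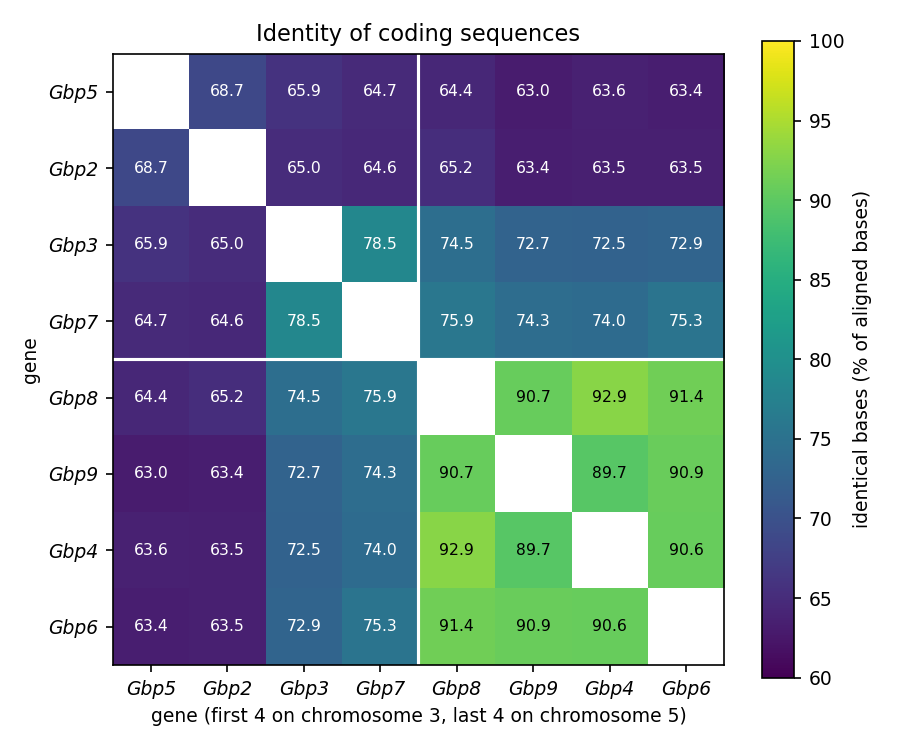
Percentage of identical bases between aligned coding sequences for each pair of the 8 genes, with white lines between the chromosome 3 and chromosome 5 blocks. The chromosome 5 block stands out at 89.7% to 92.9%, and Gbp3 and Gbp7 form the closest pair of chromosome 3 at 78.5%.

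Words of 31 bases shared with transcripts of any other gene describe similarity over short stretches of the annotated sequences. Gbp6 shared 74.2% of its 31-base words: 67.8% of its words were also in the predicted gene Gm43302 and 51.4% in Gbp10, a word being counted for each gene that holds it. Gbp8 shared 31.1%, most often with Gbp11 (15.5%) and Gbp9 (13.7%). Gbp9 shared 18.3%, Gbp7 14.7% (10.8% of its words were also in the predicted gene Gm43802) and Gbp4 14.3%. Gbp3 shared 5.64%, Gbp2 4.85% and Gbp5 3.05%. The 2 members called lower had the fewest shared words, but Gbp3, next at 5.64%, was not called. Whether shared words bear on the calls was not tested. The values of Gbp6, and the narrow call of Gbp8, are uncertain where reads were split between copies.

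Matches to the miRNAs of the deleted clusters were searched in the longest annotated 3' UTR of each member, to describe which of these transcripts hold letters that the miRNAs could pair with. The mature sequences (RefSeq, GRCm38.p6) are given with bases 2 to 8, the seed, in capitals. The seeds of miR-23 and miR-27 share their first 5 letters.
miR-23a-3p: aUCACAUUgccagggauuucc
miR-27a-3p: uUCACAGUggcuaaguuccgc
miR-24-3p: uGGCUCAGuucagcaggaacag

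A miR-27 match was present in 6 of 8 members, all but Gbp3 and Gbp5, against 28.7% of 13155 genes with a 3' UTR. Only Gbp6 and Gbp7 had the 8-nucleotide form, against 6.2% of genes. Gbp7, whose 3' UTR of 3578 nucleotides (stop codon included) is the longest, was the only member with miR-23 matches, against 24.6% of genes, and Gbp5 the only one with a miR-24 match, against 26.6%. Gbp3 had no match to any of the 3. The matches are shown with up to 11 bases on each side and the matched letters in capitals, on the strand of the transcript. All lie in the last exon, exon 11, except that of Gbp8 in exon 10.
Gbp6, miR-27, chr5:105273064-105273071: ggaaatgatagACTGTGAAatacactttgt
Gbp8, miR-27, chr5:105014905-105014911: aaaaatgatagACTGTGAtatacactttg
Gbp9, miR-27, chr5:105080045-105080051: tgatagACTGTGAcataagcattg
Gbp4, miR-27, chr5:105117684-105117690: ttgatatcataACTGTGAgaaacctggaa
Gbp2, miR-27, chr3:142637927-142637933: tttatctccccACTGTGAcaacatgtctt
Gbp7, miR-27, chr3:142547277-142547284: ggctcaggaacACTGTGAAagaggaaacag
Gbp7, miR-23, chr3:142549252-142549259: aatctaggggtAATGTGAAaaaacaaacat
Gbp7, miR-23, chr3:142550115-142550122: cagtttccatcAATGTGAAataaaatttaa
Gbp5, miR-24, chr3:142521174-142521180: tacgccaaaacCTGAGCCctccatttctt

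The miR-27 matches of Gbp6, Gbp8 and Gbp9 share the letters before them (tgatag) and lie near the start of the 3' UTR, at positions 34, 41 and 7, so they share sequence and are not independent matches. The log2 fold changes of these 3 genes were -0.48 (SE 0.56), 0.35 (SE 0.14) and -0.26 (SE 0.25) in the authors' deposited table. Gbp7, with 3 matches in all, had -0.32 (SE 0.13) in the authors' deposited table. The values of the other carriers, Gbp2, Gbp4 and Gbp5, are given above.

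Related genes were grouped into 9 lists. The immunity-related GTPases and other interferon-inducible GTPases had 11 of 11 values below 0, against 50.7% of all genes tested. Their median was -0.59 on the log2 scale, beside -0.54 for the guanylate-binding proteins. Of these 11 GTPase genes, 2 were called lower (against 11.7% of all genes tested) and 0 higher (against 11.3%). They were Igtp (-0.70, SE 0.26, DESeq2 adjusted p = 0.0326) and Irgm2 (-0.59, SE 0.23, DESeq2 adjusted p = 0.0474) in the authors' deposited table. At an unadjusted p under 0.05, 3 of 11 were lower (against 16.7% of all genes) and 0 higher, and Ifi47 was at -0.56 (SE 0.26, DESeq2 adjusted p = 0.095) in the authors' deposited table. With fold changes centred on the summed group means neither Igtp nor Irgm2 was called (adjusted p of 0.0564 and 0.0832). Both were called with centring on the median gene (0.0339 and 0.0493), and without a filter on low values Irgm2 was not (adjusted p of 0.0514). As among the members, the SEs were wide, with a median ratio of 4.68 to genes of like abundance.

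The receptor and signalling genes of interferon gamma had 0 of 10 called by DESeq2, against 11.7% lower and 11.3% higher of all genes tested. At an unadjusted p under 0.05, 2 were lower, near the 16.7% of all genes, and 0 higher, against 15.6%. In the authors' deposited table the receptor chain genes Ifngr1 and Ifngr2 were at -0.12 (SE 0.05) and 0.05 (SE 0.08), and the kinase genes Jak1 and Jak2 at 0.09 (SE 0.08) and -0.19 (SE 0.10). The authors' deposited table puts Ptpn6, a phosphatase gene, at -0.17 (SE 0.08). Ifng itself was listed but has no entry in the deposited comparison. The median of the list was -0.12.

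Of 10 interferon regulatory factor and ISGF3 genes, 2 were called lower (against 11.7% of all genes tested) and 0 higher (against 11.3%). They were Irf8, a factor of the macrophage lineage (-0.12, SE 0.04, DESeq2 adjusted p = 0.0286), and Irf5 (-0.32, SE 0.12, DESeq2 adjusted p = 0.0347) in the authors' deposited table. Both calls were lost with centring on the summed group means (adjusted p of 0.358 and 0.104) but not on the median gene (0.0358 and 0.0377). In the authors' deposited table Irf1, an activator of guanylate-binding protein promoters, was at -0.25 (SE 0.15, DESeq2 adjusted p = 0.228), Irf9 at -0.36 (SE 0.19, DESeq2 adjusted p = 0.174) and Irf4 at 0.65 (SE 0.34, DESeq2 adjusted p = 0.156). The receptor genes of type I interferon were both called lower, Ifnar2 at -0.31 (SE 0.07) and Ifnar1 at -0.18 (SE 0.07) in the authors' deposited table. These were 2 of 5 in their list (against 11.7% of all genes tested), with 0 higher (against 11.3%). Centring on the summed group means left Ifnar2 alone (adjusted p of 0.00433 against 0.17 for Ifnar1). Centring on the median gene kept both (adjusted p of 0.000254 and 0.0289). Usp18, an interferon-induced brake on that receptor, was at -1.08 (SE 0.59, DESeq2 adjusted p = 0.177) in the authors' deposited table.

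Other targets of interferon gamma had 3 of 12 measured genes called lower and 0 higher, against 11.7% and 11.3% of all genes tested. At an unadjusted p under 0.05, 7 were lower and 1 higher (against 16.7% and 15.6% of all genes). Cd274, which encodes PD-L1, fell by 0.90 on the log2 scale (SE 0.24), B2m, the light chain of MHC class I, fell by 0.69 (SE 0.23), and the immunoproteasome gene Psmb8 fell by 0.53 (SE 0.19) in the authors' deposited table. The Psmb8 call was lost with centring on the summed group means (adjusted p of 0.0645) but not on the median gene (0.0331). Among 11 inflammasome partners 4 were called lower (against 11.7% of all genes tested) and 1 higher (against 11.3%). At an unadjusted p under 0.05, 5 were lower and 2 higher (against 16.7% and 15.6%). In the authors' deposited table Gsdmd, the pore-forming effector of pyroptosis, was at -0.30 (SE 0.07), Il18 at -0.38 (SE 0.10) and Nlrc4 at 0.27 (SE 0.06). The other 2 called lower, named after their values were seen, were Casp4, which encodes caspase-11 (-0.47, SE 0.18), and Aim2, a DNA sensor (-0.33, SE 0.11), in the authors' deposited table. With centring on the summed group means those 2 calls were lost (adjusted p of 0.0735 and 0.063). On the median gene they were kept (0.0359 and 0.0183).

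The remaining lists hold genes that process or resemble the proteins. Their counts stand against 11.7% called lower and 11.3% called higher of all genes tested. Of 6 genes for prenylation, the lipid addition that anchors Gbp2 and Gbp5 to membranes, 1 was called lower, the protease gene Rce1 (-0.29, SE 0.07), and 0 higher in the authors' deposited table. Pggt1b, a subunit gene of the geranylgeranyl transferase, was at -0.14 (SE 0.06) and Icmt, a methyltransferase gene, at -0.13 (SE 0.06) in the authors' deposited table. Of 13 autophagy and vacuole partners, 3 were called lower and 0 higher, Lgals3 (-0.11, SE 0.04), Gabarap (-0.18, SE 0.06) and Atg16l1 (-0.18, SE 0.07) in the authors' deposited table. None of these 3 was called with centring on the summed group means (adjusted p of 0.366, 0.161 and 0.187). All 3 were called with centring on the median gene (0.0227, 0.0219 and 0.0333). Of 9 relatives in the dynamin superfamily, 1 was lower, the atlastin gene Atl1 (-0.36, SE 0.12), and 1 higher, the mitochondrial fusion gene Opa1 (0.21, SE 0.08) in the authors' deposited table. Dnm1 was at -0.67 (SE 0.30, DESeq2 adjusted p = 0.0854) in the authors' deposited table.

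**Figure D5:**
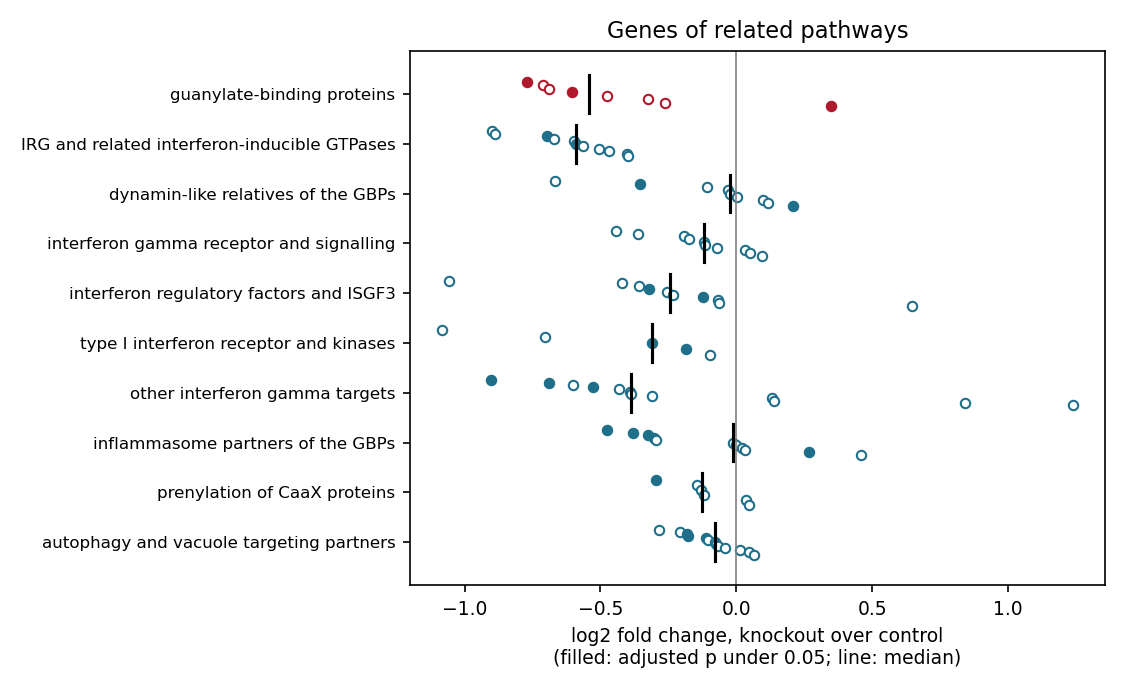
Log2 fold change of knockout over control for the 8 genes (red, top row) and 9 lists of related genes (blue), 1 point per gene, filled where the adjusted p is under 0.05, with the median as a black line. The guanylate-binding proteins (median -0.54) and the interferon-inducible GTPases (median -0.59) lie lowest, and the gamma receptor and signalling list has no filled point.

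Cell type markers moved in the same comparison. All 8 macrophage markers were present, with mean normalized counts from 13108 to 163291. Of these 8, 4 were called lower (against 11.7% of all genes tested) and 1 higher (against 11.3%). Of 12 stromal markers 11 were measured and 11 were called higher, with a median of 1.91 on the log2 scale and derived summed means of 1824 in control and 6758 in knockout. Markers of T and NK cells, the usual source of interferon gamma, were low apart from Cd4, at 1540 in the authors' deposited table: 5 of 11 were measured, and Cd8a, Trac, Klrb1c and Il2rb had means of at most 8.82 in the authors' deposited table. Of 5 endothelial markers 4 were measured: Kdr fell by 1.30 on the log2 scale (SE 0.19), Pecam1 rose by 0.82 (SE 0.23), Cdh5 rose by 0.60 (SE 0.21) and Vwf was not called in the authors' deposited table. Markers of B cells (2 of 5 measured), dendritic cells (4 of 5) and neutrophils (2 of 6) had 0 called in either direction by DESeq2, with 1 B cell marker higher at an unadjusted p under 0.05. The part of these cell types in the values of the guanylate-binding protein genes was not tested. Fewer cells of a type and less RNA per cell cannot be told apart in these libraries.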

How the data were processed

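Poly(A) RNA-seq libraries (4 control, 4 knockout) were grouped by sample title. The submitters' processing notes name FastQC, cutadapt, Salmon, DESeq2 and the mm10 build, without versions or settings. The deposited comparison holds, per the file headers, a mean normalized count (signal), a log2 fold change with its SE (log2), a Wald statistic (score), and a p-value before and after adjustment. The other deposited table has 8 columns of values per library whose names match no sample label; they were not used in any step, so depth per library is unknown here, and the planned refits, single-library values and genes of like pattern were not run. The series text calls the libraries biological replicates, 4 per genotype, without naming animals or cultures. The numerator of the fold change is not named in the header and was read from Lyz2.

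Computed here were group means (from each gene's average and fold change, for groups of equal size), 95% normal intervals, Benjamini-Hochberg adjustment under other filters (none, or a mean of at least 50), centring on the summed group means (-0.06 log2) or the median gene, a threshold of 0.01, and SE ratios to the nearest 200 genes (also 50 and 1000), in Python 3.11.15 with scipy 1.17.1. The summed group means include Lyz2. The steps were tested on simulated data. Coding sequences (GENCODE M21, longest coding model) were aligned globally with Biopython 1.88 (match 2, mismatch -1, gap open -5, gap extension -1). This replaces the planned protein alignment, for which no protein table was given, and with the shared 31-base words was chosen after the files were seen. Seed matches are to bases 2 to 8, or 2 to 7 followed by A. The members, lists and tests were chosen with earlier results of these data known. Genes named are all members, Lyz2, the 3 of each of 9 lists with the smallest adjusted p, and Ifngr1, Ifngr2, Jak1, Jak2, Irf1, Irf8 and Irf9; 1 further gene of this rule is not reported here, others are said to be chosen after their values were seen, and the cell type markers come from 7 lists.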

Additional observations from a re-analysis of the deposited data

How the results depend on the processing

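The count of 2 members called lower (Gbp2 and Gbp5) kept its size within 1.5 times under every filter, scaling and threshold tried, reaching 3 with Gbp7 at a mean of at least 50. The count of 1 member called higher (Gbp8) became 0 without a filter and 0 at a threshold of 0.01, by recomputed adjustment of the deposited DESeq2 p-values, with 1 at an unadjusted p under 0.05. Only 3 of 8 members kept their rank in level per length with the median transcript and 4 with the longest protein-coding transcript, the latter chosen after seeing the data. With 8-nucleotide matches alone, 2 members had a miR-27 match and 0 a miR-24 match. Over all genes the calls were 1651 higher and 1712 lower, and 2339 and 960 with centring on the summed group means. The other alternatives for the members' counts, the SE ratio, the identity and the motifs changed no call and no value by over 1.5 times. No refit without single libraries was run, and no paired analysis was possible because no library's values could be given a replicate number.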

Other observations

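The comparison lists 3 further genes with a Gbp symbol, all of low abundance. Gbp10, whose coding sequence is 98.4% identical to that of Gbp6, averaged 17.6 normalized counts in the authors' deposited table and was at -0.56 on the log2 scale (SE 0.70, DESeq2 adjusted p = 0.611). It shared 89.8% of its 31-base words with other genes, so its value is uncertain beside that of Gbp6. Gbp11, annotated as a polymorphic pseudogene and 93.8% identical to Gbp8, averaged 15.5 in the authors' deposited table and was at 0.36 (SE 0.44, DESeq2 adjusted p = 0.594). Gbp2b, next to Gbp2 on chromosome 3 and 82.5% identical to it, had a mean of 2.77 and no adjusted p. At that low level Gbp2b was at 1.71 on the log2 scale (SE 1.03, unadjusted DESeq2 p = 0.097) in the authors' deposited table. Its promoter window holds the same ISRE letters as that of Gbp2, TTTCACTTTC, from 137 to 128 bases before its start. Gbp2 and Gbp2b thus share the letters of this element while their mean normalized counts in the authors' deposited table were 2673 and 2.77.

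Ciita, the master activator of MHC class II genes and a target of interferon gamma, was on the other side of 0 from most genes of its list. The authors' deposited table puts it at 1.24 on the log2 scale (SE 0.50, DESeq2 adjusted p = 0.0537). It passed among genes averaging at least 50 (recomputed adjusted p = 0.0484) and with centring on the summed group means (adjusted p = 0.0416). It did not pass without a filter (adjusted p = 0.0582) or with centring on the median gene (adjusted p = 0.0532). It was chosen after its value was seen.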
